A study of Homo sapiens with 4 samples.

Results

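The genes described are 37 members of the p53 pathway: regulators and reported targets of the transcription factor p53 that act in cell cycle arrest, DNA repair, cell death, metabolism or feedback on p53 itself. They were taken from a written list of symbols, and for a gene with several probe sets the one with the highest mean over all arrays stood for it. Of the 37 genes, 33 had a probe set, among 17687 named genes in all. BTG1, BTG2, BBC3 and FDXR were not analysed here. All 33 passed a filter on the mean over the arrays, as did 12381 of the named genes, which were then tested.

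Total RNA came from Li-7 and HEP-G2, established human liver cancer cell lines, each on 1 Affymetrix array per treatment and so without replicate cultures. The 4 groups were Li-7 cells with a miR-4730 mimic, Li-7 cells with a negative control oligonucleotide, HEP-G2 cells with the mimic and HEP-G2 cells with the negative control. The mimic, a synthetic double of the microRNA, was transfected with a lipid reagent at 3 nM, 24 h after seeding. All groups were grown with fetal bovine serum, Li-7 in RPMI-1640 and HEP-G2 in DMEM, so line and medium cannot be told apart. The time of harvest was not stated in the sources used here.

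In an undamaged cell, p53 is kept scarce by MDM2, an enzyme that marks it for destruction and whose own gene p53 activates. When DNA damage or other stress blocks MDM2, p53 binds DNA near its target genes. CDKN1A then halts the cycle, DDB2 and XPC help repair, PMAIP1, FAS and TNFRSF10B favour death, and MDM2 and PPM1D close the loop. Many of these genes also answer to other factors, so their RNA is not a reading of p53 alone.

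The mature microRNA that the mimic copies is shown because its seed, bases 2 to 8 in capitals, is the stretch by which a microRNA chooses its targets. It lies on the plus strand at chr17:80419427-80419449 (GRCh38.p14, RefSeq) and is 23 bases long.
hsa-miR-4730: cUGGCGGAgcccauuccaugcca

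The promoters of the genes were searched for the p53 decamer consensus, the 10-letter element of which p53 binds a pair. The element is its own reverse complement, so 1 search covered both strands. RefSeq promoter windows, from 250 bases before to 50 after a start, were at hand for 30 of the 37 genes, with 44 windows in all. TP53INP1, RRM2B, TNFRSF10A, TNFRSF10B, GADD45A, PHLDA3 and FBXO22 had none. Of the 44 windows, 6 held a decamer (13.6%), against 6.63% of all 35116 promoter windows. A pair of decamers at most 13 bases apart stood in 1 of the 44 windows, that of DDB2, and in 10 windows of all genes (0.0285%). A match is a description of letters, not a binding site, and its absence says only that these letters are not in the window.

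The windows of DDB2, SESN1 and FAS are shown, since these genes are taken up below. Capitals mark the decamers. They are DDB2 at chr11:47214724-47215023 on the plus strand, SESN1 at chr6:109008939-109009238 on the minus strand and FAS at chr10:88991181-88991480 on the plus strand (GRCh38.p14).
DDB2: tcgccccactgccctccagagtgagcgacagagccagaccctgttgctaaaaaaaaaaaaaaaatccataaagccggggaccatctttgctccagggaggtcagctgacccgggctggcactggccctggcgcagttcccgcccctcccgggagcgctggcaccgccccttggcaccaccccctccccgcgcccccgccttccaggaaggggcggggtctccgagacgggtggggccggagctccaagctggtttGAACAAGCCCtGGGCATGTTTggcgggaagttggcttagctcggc
SESN1: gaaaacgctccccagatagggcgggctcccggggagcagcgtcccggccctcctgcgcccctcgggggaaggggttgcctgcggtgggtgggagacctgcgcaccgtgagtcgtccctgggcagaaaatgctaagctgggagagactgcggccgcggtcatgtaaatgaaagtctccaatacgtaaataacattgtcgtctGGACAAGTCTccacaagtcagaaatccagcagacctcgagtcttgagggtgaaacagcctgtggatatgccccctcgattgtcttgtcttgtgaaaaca
FAS: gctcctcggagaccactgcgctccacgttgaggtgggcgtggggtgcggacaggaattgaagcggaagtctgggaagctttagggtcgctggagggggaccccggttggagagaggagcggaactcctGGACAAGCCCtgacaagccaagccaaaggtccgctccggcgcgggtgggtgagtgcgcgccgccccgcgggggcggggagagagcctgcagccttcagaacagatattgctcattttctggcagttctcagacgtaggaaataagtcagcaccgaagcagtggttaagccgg

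In DDB2 the decamers began 6 and 17 bases after the start, with 1 base between them. In SESN1 the decamer began at position -49 from the start and in FAS at position -122. The other windows with a decamer were those of PLK2 (AGACTTGCTT, chromosome 5), AEN (GGGCTTGCCC, chromosome 15) and FDXR.

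Values are given as deposited and were read as log2, since the log base was not stated in the sources used here, and a change is mimic minus control. Array medians lay between 7.03 and 7.17. A mark of dim signal was set at the 95th percentile over 612 negative control probe sets. It was 7.99 on the Li-7 mimic array, 8.72 on the Li-7 control array, 8.20 on the HEP-G2 mimic array and 8.35 on the HEP-G2 control array. Of the 33 genes, 15 lay above it on all arrays, against 5552 of the 12381 genes tested. On no array did 3 of the 33 (PLK3, PHLDA3 and SPATA18) lie above it, against 3884 of the 12381. Sizes of change are uncertain for values under it. HMGA1, which the series names as a target of miR-4730, stood at 10.91 with the mimic and 14.93 with the control in Li-7. The HEP-G2 values were 11.61 with the mimic and 14.79 with the control. It passed the test below as lower (limma, adjusted p = 0.0241). Of 11 hepatocyte markers, all lay above the dim mark on both HEP-G2 arrays. On the Li-7 arrays 3 did so with the mimic (SERPINA1, KRT8 and KRT18) and 2 with the control (KRT8 and KRT18), so ALB, AFP, APOA1, APOB, TTR, TF, FGA and FGB were above it on neither Li-7 array. Of 12 markers of blood, endothelial and stromal cells, LYZ and COL1A2 lay above the mark on every array and the other markers on none.

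With the mimic, more of the genes were higher than lower in each line, and 1 of them, TP53INP1, rose by the test. In Li-7, 22 of 33 were higher with the mimic, against 51.8% of all genes tested, and their median change was 0.18 against 0.02 for all genes. In HEP-G2, 26 of 33 were higher, against 51.2% of all genes, with a median change of 0.60 against 0.02. On the same arrays 10 of 11 hepatocyte markers were higher with the mimic in HEP-G2 (median change 0.46) and 5 of 11 in Li-7 (median -0.07). Of 9 tested markers of blood, endothelial and stromal cells, 7 of them dim on every array, 6 were higher in HEP-G2 (median 0.38) and 2 in Li-7 (median -0.29). The part of either marker list in the result was not tested. Higher in both lines were 19 of 33, against 34.1% of all genes, and lower in both were 4 (PPM1D, POLH, TRIAP1 and ZMAT3), against 31.0% of all genes. The remaining 10 had opposite signs in the lines, against 34.9% of all genes.

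The common mimic response was tested as the treatment coefficient of a limma model with cell line, adjusted by Benjamini-Hochberg over 12381 genes. Its error comes from the disagreement between the lines, not from replicate cultures. In limma this error is drawn towards a value shared over all genes, with 5.85 prior against 1 residual degrees of freedom. An SE or interval is thus not the spread of that gene alone. Of the 33 genes, 1 passed as higher, against 0.0808% of all genes, and 0 passed as lower, against 0.339% of all genes. At an unadjusted p under 0.05, without regard to direction, there were 9 of 33, against 19.5% of all genes. With limma's moderation left out, 0 of the 33 passed, against 0.00808% of all genes as higher and 0% as lower. In a model of treatment alone, 0 of the 33 passed, against 0% of all genes. Almost no gene could pass in either setting.

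**Figure D1:**
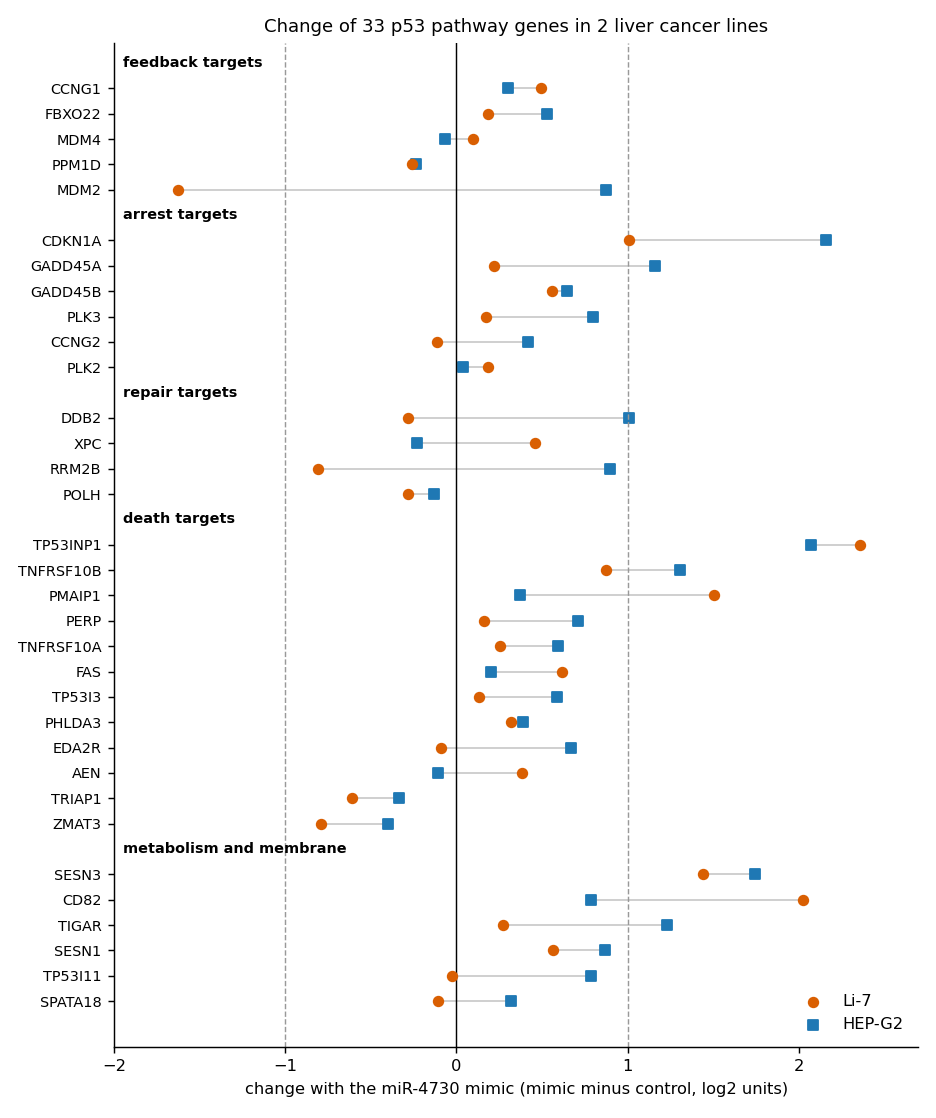
Change with the miR-4730 mimic (horizontal axis, log2 units, mimic minus control) of each of the 33 genes in Li-7 (circles) and HEP-G2 (squares), by role, with dashed lines at a 2-fold change. TP53INP1, SESN3 and CDKN1A lie at or beyond the right dashed line in both lines, and MDM2 lies at -1.62 for Li-7 and 0.87 for HEP-G2.

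Single-array differences of at least 2-fold were counted without a test, since each group had 1 array. In Li-7, TP53INP1, CD82, PMAIP1, SESN3 and CDKN1A were at least 2-fold higher (5 of 33, against 3.72% of all genes). MDM2 was at least 2-fold lower (1 of 33, against 4.12% of all genes). In HEP-G2, CDKN1A, TP53INP1, SESN3, TNFRSF10B, TIGAR, GADD45A and DDB2 were at least 2-fold higher (7 of 33, against 5.77% of all genes), and 0 were at least 2-fold lower (against 6.28% of all genes). The genes past that limit in both lines were TP53INP1, SESN3 and CDKN1A (3 of 33, against 1.03% of all genes).

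CDKN1A encodes p21, the inhibitor of cyclin-dependent kinases through which p53 halts the cycle. It stood at 9.95 with the mimic and 8.94 with the control in Li-7, and at 13.40 with the mimic and 11.24 with the control in HEP-G2. The mimic array was the higher one in each line, by 1.01 in Li-7, just at the 2-fold limit, and by 2.16 in HEP-G2. Both HEP-G2 arrays lay above both Li-7 arrays. The mean change of 1.58 (SE 0.33, 95% interval 0.80 to 2.36) did not pass (limma, adjusted p = 0.0880). It ranked 38 from the highest of 12381 genes.

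The other 5 measured arrest genes were also higher with the mimic in HEP-G2 (against 51.2% of all genes), and 4 of them in Li-7 (against 51.8%). GADD45A, a stress sensor that binds cell cycle and repair proteins, stood at 10.29 with the mimic and 10.07 with the control in Li-7. In HEP-G2 it stood at 10.79 with the mimic and 9.64 with the control. Its HEP-G2 difference of 1.16 was past the 2-fold limit and its Li-7 difference of 0.22 was not, and the mean change was 0.69 (SE 0.30; limma, adjusted p = 0.273). Its relative GADD45B was 0.56 higher in Li-7 and, from a dim control value, 0.65 higher in HEP-G2. PLK3, a polo-like kinase of the stress response that was dim on every array, was 0.17 (Li-7) and 0.80 (HEP-G2) higher. PLK2, a related kinase, was 0.18 (Li-7) and 0.04 (HEP-G2) higher, at dim values in HEP-G2. CCNG2, a cyclin that restrains growth, was at -0.11 in Li-7, at dim values, with 0.42 in HEP-G2, from a dim control value. None of the 6 passed (limma, adjusted p of 0.0880 to 0.849).

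Among the 12 measured death genes, 8 were higher with the mimic in both lines, against 34.1% of all genes. TP53INP1, a nuclear protein that cooperates with p53 in promoting death and autophagy, was the 1 of the 33 genes that rose by the test. It stood at 8.71 with the mimic and 6.36 with the control in Li-7, and at 10.63 with the mimic and 8.56 with the control in HEP-G2. The differences of 2.36 in Li-7 and of 2.07 in the HEP-G2 line ranked 5 (Li-7) and 47 (HEP-G2) from the highest of all genes. The mean change of 2.22 (SE 0.25, 95% interval 1.62 to 2.81), 4.64-fold, passed (limma, adjusted p = 0.0308). The Li-7 control value was dim. The call was lost after cyclic loess normalization (adjusted p = 0.0545), at a mean change of 2.28, and also without limma's moderation (adjusted p = 0.621) and in a model of treatment alone (adjusted p = 1).

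TNFRSF10B, the death receptor DR5 for the ligand TRAIL, stood at 11.63 with the mimic and 10.76 with the control in Li-7. In HEP-G2 its value was 12.98 with the mimic and 11.68 with the control. All 4 values lay well above the dim mark, and the differences were 0.87 (Li-7) and 1.31 (HEP-G2). Its mean change of 1.09 (SE 0.26, 95% interval 0.48 to 1.70) did not pass (limma, adjusted p = 0.106). The sister receptor TNFRSF10A, DR4, was 0.25 higher in Li-7 and 0.60 higher in HEP-G2. FAS, a death receptor of the same family, was 0.62 (Li-7) and 0.20 (HEP-G2) higher, on arrays that all exceeded the dim mark.

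PMAIP1 encodes NOXA, a BH3-only protein that neutralises the survival factor MCL1. It stood at 10.71 with the mimic and 9.20 with the control in Li-7, a difference of 1.51 that ranked 104 from the highest. The HEP-G2 arrays had it at 3.86 with the mimic and 3.49 with the control, under the medians of the negative control probe sets of those arrays (4.26 with the mimic and 4.34 with the control), so the HEP-G2 difference of 0.37 is one between values at background. The mean change over both lines was 0.94 (SE 0.33; limma, adjusted p = 0.193).

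PERP, a desmosome protein that favours death, was 0.16 higher in Li-7 and 0.71 higher in HEP-G2. TP53I3, an oxidoreductase known as PIG3, was 0.13 (Li-7) and 0.59 (HEP-G2) higher. PHLDA3, which restrains AKT, was 0.32 (Li-7) and 0.39 (HEP-G2) higher but dim on every array. EDA2R, a receptor for ectodysplasin A2, was at -0.09 in Li-7, where it was dim, and at 0.67 in HEP-G2. AEN, a nuclease of apoptosis, was at 0.38 (Li-7) and -0.11 (HEP-G2).

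ZMAT3 and TRIAP1 ran lower in both lines. ZMAT3, an RNA-binding zinc finger protein, stood at 7.27 with the mimic and 8.06 with the control in Li-7, and at 9.38 with the mimic and 9.78 with the control in HEP-G2. Its mean change was -0.60 (SE 0.25; limma, adjusted p = 0.262), the lowest of the 33. TRIAP1, which counters apoptosis at the mitochondrion, was at -0.61 (Li-7) and -0.33 (HEP-G2), with a mean change of -0.47 (SE 0.25; limma, adjusted p = 0.352). Both genes were dim on the Li-7 arrays.

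**Figure D2:**
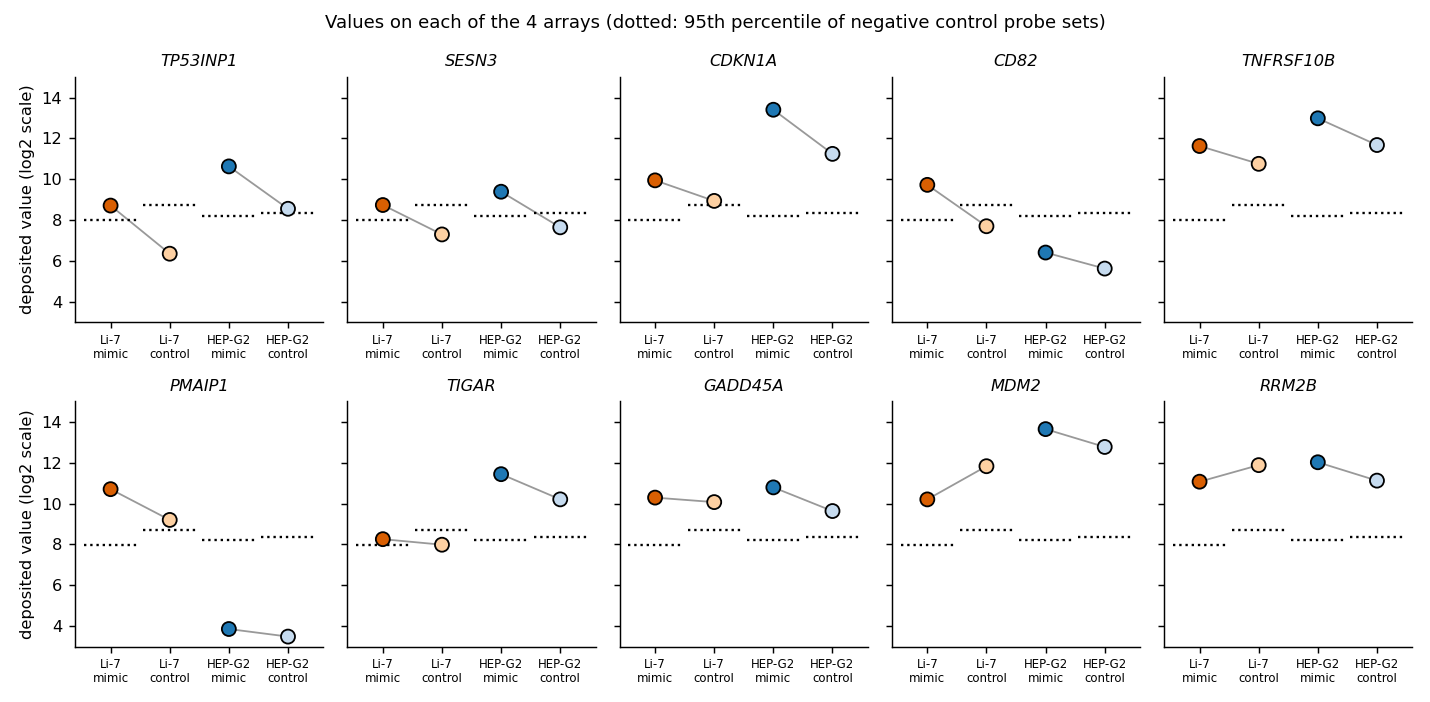
Deposited values (vertical axis, log2 scale) of 10 of the genes on each of the 4 arrays, mimic left of control within each line, with the mark of dim signal of each array dotted. The mimic point is the higher one in both lines for all but MDM2 and RRM2B, which are lower with the mimic in Li-7 and higher in HEP-G2.

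The feedback genes had no common direction. MDM2, the ubiquitin ligase that removes p53, stood at 10.21 with the mimic and 11.83 with the control in Li-7. Its HEP-G2 value was 13.65 with the mimic and 12.77 with the control. The mimic array was lower by 1.62 in Li-7 and higher by 0.87 in HEP-G2, all at values well above the dim mark. The mean change of -0.38 had the widest error of the 33 (SE 0.54, 95% interval -1.65 to 0.90; limma, adjusted p = 0.751). The difference between the lines could not be tested with 1 array per group.

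CCNG1, cyclin G1, which recruits a phosphatase to MDM2, stood at 14.13 with the mimic and 13.63 with the control in Li-7. The HEP-G2 values were 13.01 with the mimic and 12.71 with the control, so the mimic array was higher in each line, by 0.50 (Li-7) and 0.30 (HEP-G2). Its mean change was 0.40 (SE 0.25; limma, adjusted p = 0.424). FBXO22, a subunit of a ubiquitin ligase, was 0.18 (Li-7) and 0.53 (HEP-G2) higher. MDM4, the partner of MDM2 that masks the activation domain of p53, was at 0.10 (Li-7) and -0.07 (HEP-G2). PPM1D, the phosphatase WIP1 that switches off damage signalling, was at -0.26 (Li-7) and -0.24 (HEP-G2).

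Of the 4 repair genes, 0 were higher in both lines, against 34.1% of all genes. DDB2, which recognises ultraviolet damage, stood at 6.55 with the mimic and 6.83 with the control in Li-7, both dim. In HEP-G2 it stood at 8.50 with the mimic and 7.49 with the control, a difference of 1.01 just at the 2-fold limit from a dim control value. The mean change was 0.36 (SE 0.35; limma, adjusted p = 0.615). RRM2B, the p53-inducible subunit of ribonucleotide reductase, was also split. It stood at 11.07 with the mimic and 11.88 with the control in Li-7, and at 12.02 with the mimic and 11.13 with the control in HEP-G2.

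RRM2B thus resembled MDM2 in being lower with the mimic in Li-7 (by 0.81) and higher in HEP-G2 (by 0.90), on bright values. XPC, which starts global nucleotide excision repair, had the other pattern, at 0.46 in Li-7, from a dim control value, and at -0.23 in HEP-G2. POLH, the polymerase that copies past ultraviolet lesions, stood at 8.76 with the mimic and 9.05 with the control in Li-7. In HEP-G2 its value was 10.00 with the mimic and 10.14 with the control, a mean change of -0.21 (SE 0.24; limma, adjusted p = 0.687).

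Genes of metabolism and the cell membrane had the highest median of the role groups, with a median mean change of 0.73 over 6 genes against 0.03 over all genes. Each of the 6 was dim on at least 1 array, so the size of this median is uncertain. SESN3, a sestrin that curbs mTORC1 and oxidative stress, stood at 8.74 with the mimic and 7.30 with the control in Li-7. The HEP-G2 arrays had it at 9.39 with the mimic and 7.65 with the control. Both mimic arrays lay above both control arrays, and the control values were dim in both lines. The mean change of 1.59 (SE 0.25, 95% interval 1.00 to 2.19) missed the threshold (limma, adjusted p = 0.0601) and ranked 36 from the highest. Its relative SESN1 was 0.56 higher in Li-7, at dim values, and 0.87 higher in HEP-G2 (limma, adjusted p = 0.195).

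CD82, a tetraspanin that restrains metastasis, stood at 9.73 with the mimic and 7.70 with the control in Li-7, where the control value was dim. Its HEP-G2 value was 6.41 with the mimic and 5.63 with the control, both dim. The Li-7 difference of 2.03 ranked 23 from the highest, and the HEP-G2 difference was 0.79. The mean change of 1.41 (SE 0.34, 95% interval 0.60 to 2.21) did not pass (limma, adjusted p = 0.110).

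TIGAR, a phosphatase that slows glycolysis, stood at 8.26 with the mimic and 7.99 with the control in Li-7, where the control value was dim. In HEP-G2 it stood at 11.44 with the mimic and 10.21 with the control. The difference was past the 2-fold limit in HEP-G2 (1.23) and not in Li-7 (0.27), with a mean change of 0.75 (SE 0.30; limma, adjusted p = 0.241). TP53I11, a membrane protein also called PIG11, was at -0.02 in Li-7, with 0.79 in HEP-G2, dim in the second line. SPATA18, a factor of mitochondrial quality control, was at -0.11 (Li-7) and 0.32 (HEP-G2) and dim on every array.

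The lines can be set side by side gene by gene, as they share no arrays. The signed change was higher in HEP-G2 than in Li-7 for 24 of the 33 genes, against 48.4% of all genes, and the difference was not tested. By size, without regard to sign, the change was larger in HEP-G2 for 19 of 33, against 55.7% of all genes. The exceptions to the signed order were MDM4, CCNG1, PLK2, XPC, PMAIP1, FAS, TP53INP1, AEN and CD82. Across the 33 genes the changes in the lines had a correlation of 0.467 (Pearson), close to the 0.469 across all 12381 genes. This is a description across genes, which are not independent replicates.

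**Figure D3:**
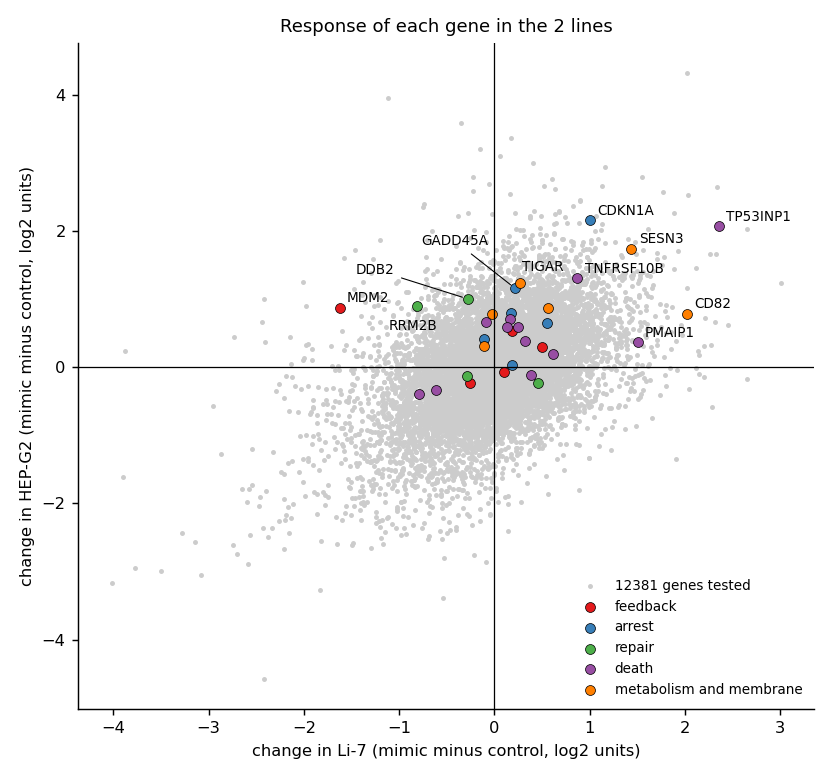
Change with the mimic in Li-7 (horizontal axis) against that in HEP-G2 (vertical axis), both in log2 units, for 12381 genes tested (grey) and the 33 p53 pathway genes coloured by role. TP53INP1 and SESN3 lie far into the upper right, and MDM2 and RRM2B in the upper left.

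The control arrays gave the levels of the genes in each line without the mimic. Between Li-7 and HEP-G2, 7 of 33 genes were at least 2-fold higher in Li-7 (against 19.3% of all genes) and 10 at least 2-fold lower (against 16.6% of all genes). As the line coefficient of the limma model over all 4 arrays, 23 of 33 passed, against 44.9% of all genes. Of these, 9 were higher in Li-7, against 24.3% of all genes, and 14 were lower, against 20.7% of all genes. In this model the mimic and control arrays of a line stand in for its replicates, and neither line had replicate cultures. The p-values of the line coefficient therefore do not measure the spread between cultures of a line. Without limma's moderation, 0 of the 33 passed, against 0% of all genes as higher in Li-7 and 0.00808% as lower, so almost no gene could pass.

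PLK2 and PMAIP1 had the largest line differences. PLK2 stood at 14.25 on the Li-7 control array and 8.15 on the HEP-G2 control array, where it was dim, with a line coefficient of 6.18 (SE 0.24; limma, adjusted p = 4.46e-06). PMAIP1 stood at 9.20 on the Li-7 control array and 3.49 on the HEP-G2 control array, with a line coefficient of 6.28 (SE 0.33; limma, adjusted p = 1.29e-05). PLK2 was thus bright in Li-7, while PMAIP1 was at background in HEP-G2, where the size of its difference is uncertain.

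TP53I11 (coefficient 2.63), CD82 (2.69), GADD45B (1.80), PERP (1.76), TNFRSF10A (1.23), CCNG1 (1.02) and MDM4 (0.82) were the other genes higher in Li-7. CD82 was dim on both control arrays, and TP53I11 and GADD45B were dim on the HEP-G2 control array. On the side lower in Li-7, EDA2R stood at 4.66 on the Li-7 control array, near background, and at 9.34 on the HEP-G2 control array. Its line coefficient was -5.06 (SE 0.28; limma, adjusted p = 1.76e-05).

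SPATA18 (-3.42, dim on every array), CDKN1A (-2.88), SESN1 (-2.80), TIGAR (-2.70), MDM2 (-2.19), TP53INP1 (-2.06) and ZMAT3 (-1.91) were lower in Li-7 too. FBXO22, DDB2, POLH, TNFRSF10B, AEN and TRIAP1 completed that side, with coefficients from -1.31 to -0.92. The coefficient takes in the mimic arrays as well. Between the control arrays alone, MDM2 stood at -0.94, DDB2 at -0.66, TNFRSF10B at -0.92 and TRIAP1 at -0.78, short of the 2-fold limit. The other genes of that side were past it. SESN1, TIGAR, TP53INP1, ZMAT3, DDB2 and TRIAP1 were dim on the Li-7 control array, so the sizes of their differences are uncertain. By role, the side lower in Li-7 (20.7% of all genes) held 6 of 12 death genes and 3 of 6 of metabolism and membrane. It also held 2 of 5 feedback genes, 2 of 4 repair genes and 1 of 6 arrest genes. The side higher in Li-7 (24.3% of all genes) held 3 of 12 death genes and 2 of 6 of metabolism and membrane. With them were 2 of 5 feedback genes, 2 of 6 arrest genes and 0 of 4 repair genes. Of the 11 hepatocyte markers, 9 were also lower in Li-7 by the limma test, against 20.7% of all genes. The other 2 passed as higher in Li-7, against 24.3% of all genes. Their part in the result was not tested.

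**Figure D4:**
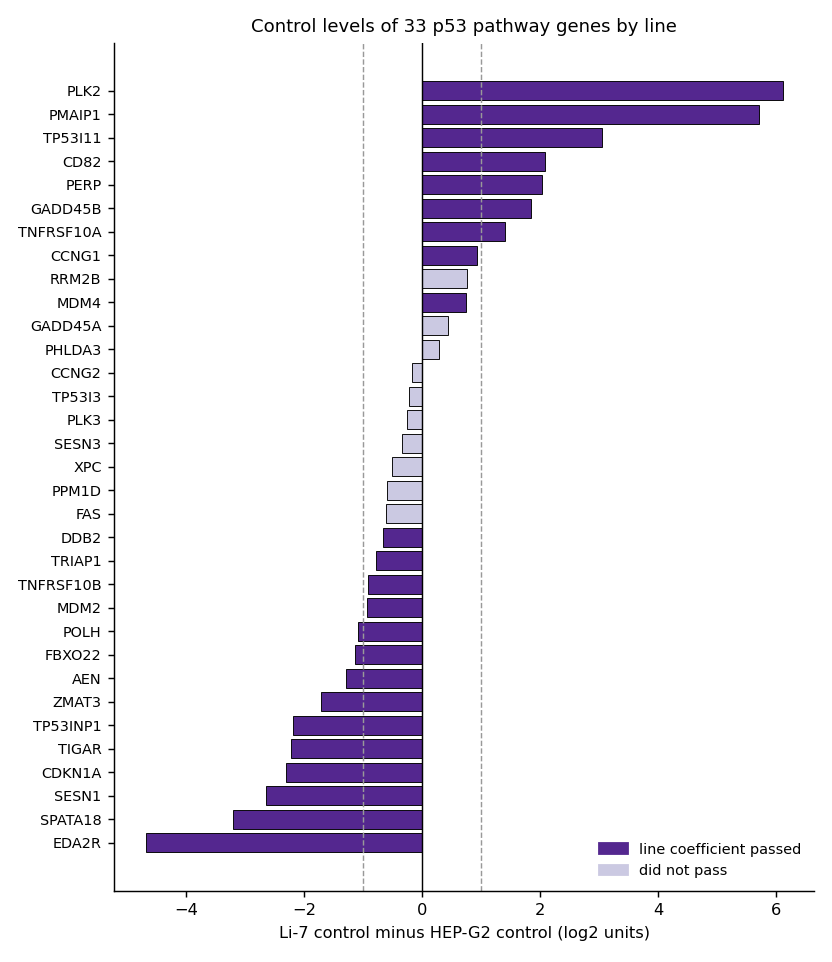
Difference between the control arrays (horizontal axis, Li-7 minus HEP-G2, log2 units) for the 33 genes, with dashed lines at 2-fold. Dark bars are the 23 genes whose line coefficient passed the limma test, from PLK2 (higher in Li-7) at the top to EDA2R (lower in Li-7) at the bottom.

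Further genes of the pathway were summarised from written lists. Of 24 genes of the p53 family and its upstream regulators, 20 were tested and 0 passed in either direction (limma, lowest adjusted p = 0.199; 3 of 20 at an unadjusted p under 0.05, against 19.5% of all genes). Their median change was -0.10 in Li-7, with -0.18 in HEP-G2. CHEK2, a kinase that activates p53, had a mean change of -0.81 (SE 0.29) and was dim on the Li-7 arrays. CHEK1, the checkpoint kinase of replication stress, was at -0.72 (SE 0.26). PPP1R13B, a p53-binding protein also called ASPP1, was at -0.87 (SE 0.34) but dim on every array. DAXX, a histone chaperone, was at -0.55 (SE 0.26).

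Of 32 further p53 targets, 25 were tested and 0 passed (limma, lowest adjusted p = 0.0664; 7 of 25 at an unadjusted p under 0.05, against 19.5% of all genes). Their median change was 0.10 in Li-7, with 0.34 in HEP-G2, and 13 of 25 were higher in both lines, against 34.1% of all genes. TNFRSF10D, a decoy receptor for TRAIL, was 1.01 higher in Li-7 and 1.09 higher in HEP-G2. TP53I13 was 0.82 (Li-7) and 1.29 (HEP-G2) higher but dim on every array. PCNA, the sliding clamp of DNA replication, was at -1.44 in Li-7, with -1.45 in HEP-G2. KITLG, the ligand of the receptor KIT, was at -0.67 (Li-7) and -1.25 (HEP-G2).

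A list of 18 cell cycle genes that p53 is known to lower through p21 and the DREAM repressor was lower in both lines for 15 genes (against 31.0% of all genes) and higher in both for 0 (against 34.1%). Its median change was -0.18 in Li-7, with -1.72 in HEP-G2, and 2 genes in Li-7 and 14 in HEP-G2 were at least 2-fold lower (against 4.12% of all genes in Li-7 and 6.28% in HEP-G2). FOXM1, a transcription factor of mitosis, was at -1.20 in Li-7, with -2.35 in HEP-G2. BIRC5, survivin, was at -0.55 (Li-7) and -2.52 (HEP-G2), CDK1, the mitotic kinase, at -0.96 (Li-7) and -2.07 (HEP-G2), and CCNB2, a mitotic cyclin, at -0.74 (Li-7) and -2.28 (HEP-G2). None of the 18 passed (limma, lowest adjusted p = 0.0756; 9 of 18 at an unadjusted p under 0.05, against 19.5% of all genes). CDKN1A was 1.01 higher in Li-7 and 2.16 higher in HEP-G2 on the same arrays, and a link between the gene and the list was not tested.

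**Figure D5:**
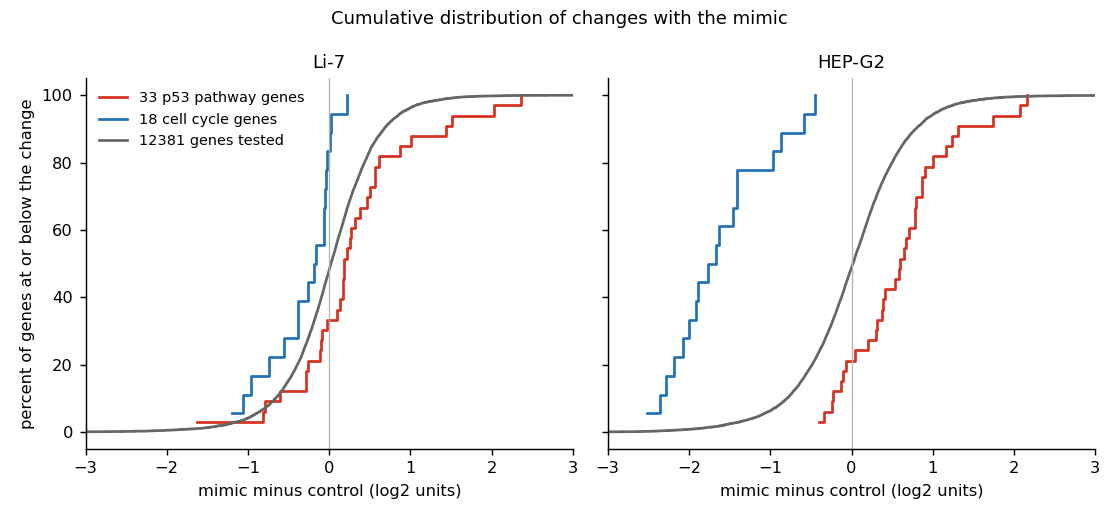
Percent of genes at or below a given change (horizontal axis, mimic minus control, log2 units) in each line, for the 33 p53 pathway genes, the 18 cell cycle genes and all 12381 genes tested. The p53 pathway curve lies right of that of all genes over most of its range, with medians of 0.18 (Li-7) and 0.60 (HEP-G2), and the cell cycle curve lies left of it, with medians of -0.18 (Li-7) and -1.72 (HEP-G2).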

How the data were processed

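Biotin-labelled cRNA from 4 samples was hybridised to Affymetrix arrays, per the labels' protocols. The authors deposited 1 table of 24351 probe-set values, read here as log2. Affymetrix Expression Console and, in addition, Transcriptome Analysis Console appear in the submitters' processing notes. How background, normalization and the log were handled was not stated, so folds are on the deposited scale, and the number of arrays limits precision. Values ran from 1.48 to 18.3. GEO's platform annotation gave 1 gene to 17709 probe sets and none used here to 6642, and symbols were updated through RefSeq (GRCh38.p14). The test kept genes whose mean reached the 30th percentile (4.90).

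The deposited values entered limma 3.58.1 in R 4.3.3 as they were (lmFit and eBayes, cell line and treatment, 1 residual and 5.85 prior degrees of freedom, adjusted p threshold 0.05). Intervals are at 95% on 6.85 degrees of freedom. The fit was run on simulated data with independent noise on each array and the same mimic effect in both lines. As no line-specific mimic effect was simulated, the run does not bear on genes whose response differs between the lines. The members, role groups, lists, tests and alternatives were chosen with earlier results of these data known. Values on each array are given for genes that passed, were at least 2-fold changed in a line, or had 1 of the 2 largest mean changes of their role group. Other genes so described (ZMAT3, RRM2B) were named after their values were seen.

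Alternatives were quantile, median and cyclic loess normalization, other filters, the mean of probe sets, other variance settings, no second factor and a 1.5-fold limit. A median was counted as moved beyond 0.1.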

Additional observations from a re-analysis of the deposited data

Results flagged for a closer look

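Opposite signs in the 2 lines drew attention to 10 genes, a difference that was not tested since each group had 1 array. As the change in Li-7 minus the change in HEP-G2, MDM2 stood at -2.50, RRM2B at -1.71 and DDB2 at -1.29. TP53I11 stood at -0.81, EDA2R at -0.76, CCNG2 at -0.53 and SPATA18 at -0.42. The other sign was seen for XPC at 0.69, AEN at 0.49 and MDM4 at 0.16. MDM2, RRM2B, MDM4 and AEN lay above the dim mark on all 4 arrays, while SPATA18 lay under it on every array. CCNG2 and DDB2 were above it on 1 array, TP53I11 and EDA2R on 2 and XPC on 3.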

How the results depend on the processing

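Of 155 comparisons of 12 named genes with an alternative, 142 kept direction and side of the threshold, 4 lost a call, 9 gained one and 0 reversed. Other filters, other variance settings, the mean of probe sets and no second factor left these mean changes as they were. Direction could therefore reverse only under another normalization. TP53INP1 alone was called as reported, with 9 comparisons kept and 4 lost, so the other kept comparisons were of genes that stayed without a call. The count that rose, 1 as reported, was 0 after cyclic loess (over all named genes, or over the tested genes alone, the second of these added after seeing the data), with an ordinary t statistic and without the other factor. It was 2 after quantile normalization, 3 with that over the tested genes (added after seeing the data), 2 with a filter at the negative control probe sets, 3 with one at the median gene and 4 with an intensity trend. SESN3, CDKN1A and TNFRSF10B were the genes gained. Over all genes the same settings gave 0 (both cyclic loess fits), 1, 0, 87, 264, 200, 366 and 411 calls, against 52, and the share lower among them was 70.5% with the negative control filter, 65.3% with the median filter, 61.6% with the trend and 68.2% with quantile normalization of the tested genes, against 80.8%. The line difference counts of 9 and 14 became 0 and 0 with the ordinary t statistic, against 0% and 0.00808% of all genes. At a 1.5-fold limit, 18 genes were higher in HEP-G2 (against 16.4% of all genes), 4 lower in Li-7 (12.3%) and 16 lower in Li-7 between controls (26.1%). The HEP-G2 median was 0.70 with cyclic loess of the tested genes. Centring on medians moved the median control difference of all genes to -0.14, against 0.02. The cause of these moves was not tested, beyond the number of genes or the limit that an alternative itself sets. The line term of the model pairs mimic with control within each line, and without it 0 of the 33 genes passed, against 1. Without that term 0 of all 12381 genes passed too. The labels give no replicate numbers for any further pairing.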
